A study of Mus musculus with 14 samples.

Results

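The 2'-5'-oligoadenylate synthetase (OAS) family was followed through 5 of its genes, Oas1a, Oas2, Oas3, Oasl1 and Oasl2, in mouse CD4+ T cells exposed to interferon alpha together with a JAK inhibitor. A member was taken as the brightest array probe set annotated to its symbol and to no other, and each had exactly 1 such probe set. They are 5 of 19752 genes with a probe set of their own, and 5 of 5 were bright enough to be among the 11851 genes tested. The T cells came from spleens of male C57BL/6 mice aged 6 weeks, were enriched by negative selection, and were stimulated with CD3/CD28 beads for 48 h. All cultures then received interferon alpha at 100 U/ml and 1 of 7 inhibitors of Janus kinases (JAKs), each at its IC80, the concentration giving 80% inhibition in an assay that is not described. Their molar concentrations are not given in the sources used here. RNA was taken at 8 h and at 2 h and put on Mouse Gene 1.0 ST arrays, 1 array for each inhibitor and time and 14 in all.

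By their target labels, 4 inhibitors name JAK1 or TYK2 (JAK1, JAK1/2, PAN and TYK2, with PAN taken to include JAK1) and 3 name only another JAK (1 labelled JAK2 and 2 labelled JAK3, IFN.6226 and IFN.6228 in the sample titles). The receptor for type I interferon signals through JAK1 and TYK2, and the comparison of the 2 classes asks how far the labelled target is reflected in transcripts of the family. Cultures lacking an inhibitor, or lacking interferon, were not analysed here, so levels are set between inhibitors and not against an untreated cell. No array was repeated. A p-value for the classes therefore measures the spread between inhibitors of a class, and one for time or for a pair of inhibitors the departure from an additive pattern of inhibitor and time, not the spread between cultures. In such bulk RNA a smaller number of expressing cells and less transcript per cell cannot be told apart.

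OAS proteins are sensors of double-stranded RNA. On binding it, the active members join ATP into 2'-5'-linked oligoadenylates (2-5A), a second messenger of the antiviral response that leads to the decay of RNA and a halt of translation. Their genes are classical targets of the transcription factor complex ISGF3, which includes STAT2 and IRF9, is activated by type I interferon and binds the interferon-stimulated response element (ISRE). Oas1a, Oas2 and Oas3 encode synthetases that differ in how many copies of the catalytic unit they carry. Oasl1 and Oasl2 encode OAS-like proteins with ubiquitin-like domains at the carboxy end. Mouse Oasl2 is an active synthetase, while Oasl1 is not and is known in mice for holding back translation of Irf7 mRNA.

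All 5 genes lie on chromosome 5 (RefSeq, build GRCm38.p6), as protein-coding genes in a pair of clusters. Oas2 spans chr5:120730333-120749886, Oas3 chr5:120753098-120777684 and Oas1a chr5:120896256-120907544. Oasl2 spans chr5:114896926-114912245 and Oasl1 chr5:114923143-114937911. Because ISGF3 acts through the ISRE, the 250 bases before a transcript start are shown for the 4 of 5 members that had an entry in the RefSeq promoter table, each 5' to 3' on the gene's strand. The start is the one that table uses, which lies inside the gene span given above, so that the last 19 bases of the window of Oas1a, 25 of Oas3, 97 of Oasl1 and 8 of Oasl2 fall within that span. The windows are chr5:120907526-120907775 (minus strand) for Oas1a, chr5:120777660-120777909 (minus) for Oas3, chr5:114922990-114923239 (plus) for Oasl1 and chr5:114896684-114896933 (plus) for Oasl2. Oas2 is named only. Capitals mark the ISRE core, GAAANNGAAA, searched on both strands.
Oas1a: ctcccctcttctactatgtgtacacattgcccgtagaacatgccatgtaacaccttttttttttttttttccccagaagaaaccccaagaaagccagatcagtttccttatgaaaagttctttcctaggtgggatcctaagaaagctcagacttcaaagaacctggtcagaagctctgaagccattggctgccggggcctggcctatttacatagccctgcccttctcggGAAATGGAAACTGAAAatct
Oas3: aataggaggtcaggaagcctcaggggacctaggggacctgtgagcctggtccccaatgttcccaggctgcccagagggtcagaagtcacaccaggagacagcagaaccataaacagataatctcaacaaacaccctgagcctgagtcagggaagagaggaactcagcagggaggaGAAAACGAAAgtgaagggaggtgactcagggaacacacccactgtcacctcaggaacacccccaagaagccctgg
Oasl1: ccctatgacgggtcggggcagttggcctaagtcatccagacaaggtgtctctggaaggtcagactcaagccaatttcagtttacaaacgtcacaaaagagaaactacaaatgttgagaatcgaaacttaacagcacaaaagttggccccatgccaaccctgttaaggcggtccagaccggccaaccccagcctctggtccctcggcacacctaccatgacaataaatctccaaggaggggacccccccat
Oasl2: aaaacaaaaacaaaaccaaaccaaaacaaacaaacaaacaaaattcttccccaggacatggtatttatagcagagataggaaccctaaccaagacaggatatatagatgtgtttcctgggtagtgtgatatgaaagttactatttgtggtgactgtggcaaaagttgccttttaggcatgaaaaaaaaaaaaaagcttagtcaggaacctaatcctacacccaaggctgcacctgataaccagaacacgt
The Oas1a window held 2 matches that overlap each other, GAAATGGAAA at 20 to 11 bases and GAAACTGAAA at 14 to 5 bases before the table's start, so that the second and most of the first lie within the annotated gene span. The Oas3 window held 1, GAAAACGAAA, at 75 to 66 bases before the table's start, and those of Oasl1 and Oasl2 held none. Of 32851 such windows of all genes, 978 (2.98%) held at least 1 match. A GAS element, TTCNNNGAA, the site of STAT dimers, was found once, in Oas1a (TTCAAAGAA, 98 to 90 bases before the table's start), and in 2306 of all windows (7.02%). A match is a run of letters and not a measured binding site, and a window without one says only that these letters are not in it.

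The arrays resembled each other closely, with pairwise Pearson r of 0.980 to 0.998 over all probe sets. T cell markers fitted the label: 6 of the 7 listed had a probe set of their own and all 6 were above the filter, with means of 12.37 for Cd3e and 11.82 for Cd4 on the log2 scale. Of all arrays, that of the JAK1 inhibitor at 8 h stood somewhat apart, with a mean r of 0.990 to the other 8 h arrays and the lowest upper quartile of intensity, 378 against 405 to 476 on the others. The summed intensity of 6 skeletal muscle markers was 1150 to 1200 on 3 arrays (JAK1 at 8 h, JAK1/2 at both times) and 685 to 855 on the other 11. The class comparisons are given with and without these 3 arrays, and the part of muscle RNA in the other comparisons was not tested. Leaving them out removes JAK1/2 at 2 h. At 8 h and in the change between the times it removes JAK1 and JAK1/2, so that of their class PAN and TYK2 alone remain. All 4 B cell markers with a probe set of their own (Cd79b at a mean of 9.57) and both CD8 T cell markers (Cd8b1 at 8.99) were above the filter as well. Macrophages and monocytes can also be rich in OAS transcripts. Of their 7 markers, 2 were above the filter, Cd68 (mean 7.43) and Lyz2 (7.12). Itgam (6.27) and Fcgr1 (6.23) lay at its edge, and Csf1r, Cd14 and Adgre1 had means of 5.49, 5.31 and 4.72, below it. The summed intensity of the 7 was 505 to 609 under the inhibitors naming JAK1 or TYK2 and 590 to 644 under the others at 2 h, and 534 to 651 and 526 to 600 at 8 h, and their part in the results was not tested.

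The members differed widely in how far they moved over the 14 arrays. Oasl2, Oas3 and Oas2 spanned 3.12, 3.08 and 2.50 log2 units between their lowest and highest array (8.71-fold, 8.46-fold and 5.64-fold). Oasl1 and Oas1a spanned 1.03 and 0.95, about 2.04-fold and 1.94-fold. The median span over all tested genes was 0.58. The highest array was that of the JAK2 inhibitor at 8 h for Oas2, Oas3 and Oasl2. Levels of different genes come from different probes and are not compared with each other.

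Oas1a moved least of the 5 members. Its values, 6.72 to 7.67 over the arrays, were not far above the filter of 6.27, and whether low intensity limited its movement was not tested. At 8 h its log2 intensity was 7.02, 7.31, 7.51 and 6.88 under the JAK1, JAK1/2, PAN and TYK2 inhibitors, against 7.31, 7.47 and 7.67 under JAK2, IFN.6226 and IFN.6228. At 2 h it was 6.87, 6.72, 7.11 and 6.89 under the inhibitors naming JAK1 or TYK2, against 6.83, 6.93 and 7.10 under the others. The classes overlapped at both times, and TYK2 was the 1 inhibitor under which the 8 h value (6.88) was not above the 2 h value (6.89).

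Oas2 separated the classes at 2 h and mixed them at 8 h. At 8 h it stood at 6.99, 8.57, 8.66 and 8.26 under JAK1, JAK1/2, PAN and TYK2, against 9.22, 8.87 and 8.64 under JAK2, IFN.6226 and IFN.6228. At 2 h the values were 6.72, 6.72, 6.98 and 6.79, against 7.96, 7.75 and 7.66. The 4 low 2 h values lay within 0.26 of each other, whereas at 8 h only the JAK1 array remained near that level and PAN stood just above IFN.6228.

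Oas3, the largest synthetase, had the largest mean difference between the times of any member. At 8 h it read 9.12, 10.03, 10.13 and 9.89 under JAK1, JAK1/2, PAN and TYK2, against 10.49, 10.37 and 10.40 under JAK2, IFN.6226 and IFN.6228. At 2 h it read 7.41, 8.06, 8.17 and 8.17, against 9.42, 9.31 and 9.21. The JAK1 array was lowest of the 7 at each time, and the classes did not overlap at either.

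Oasl2, the active OAS-like synthetase, was low under JAK1 at both times. At 8 h it stood at 6.78, 8.71, 9.04 and 8.52 under JAK1, JAK1/2, PAN and TYK2, against 9.77, 9.36 and 9.27 under JAK2, IFN.6226 and IFN.6228. At 2 h it stood at 6.65, 7.30, 7.56 and 7.44, against 9.07, 8.92 and 8.87. In linear intensity the JAK1 arrays read 110 at 8 h and 100 at 2 h, and the JAK2 arrays 873 and 539. The classes did not overlap at either time, and at 8 h the gap between JAK1 and the next lowest array, TYK2, was 1.74.

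Oasl1, the OAS-like protein without synthetase activity, had a narrow range. At 8 h it stood at 7.60, 7.95, 7.80 and 7.74 under JAK1, JAK1/2, PAN and TYK2, against 8.01, 8.12 and 7.99 under JAK2, IFN.6226 and IFN.6228. At 2 h it stood at 7.32, 7.21, 7.44 and 7.09, against 7.94, 7.99 and 7.85. Under JAK2, IFN.6226 and IFN.6228 it lay at nearly the same level at both times, and the classes did not overlap at either.

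**Figure D1:**
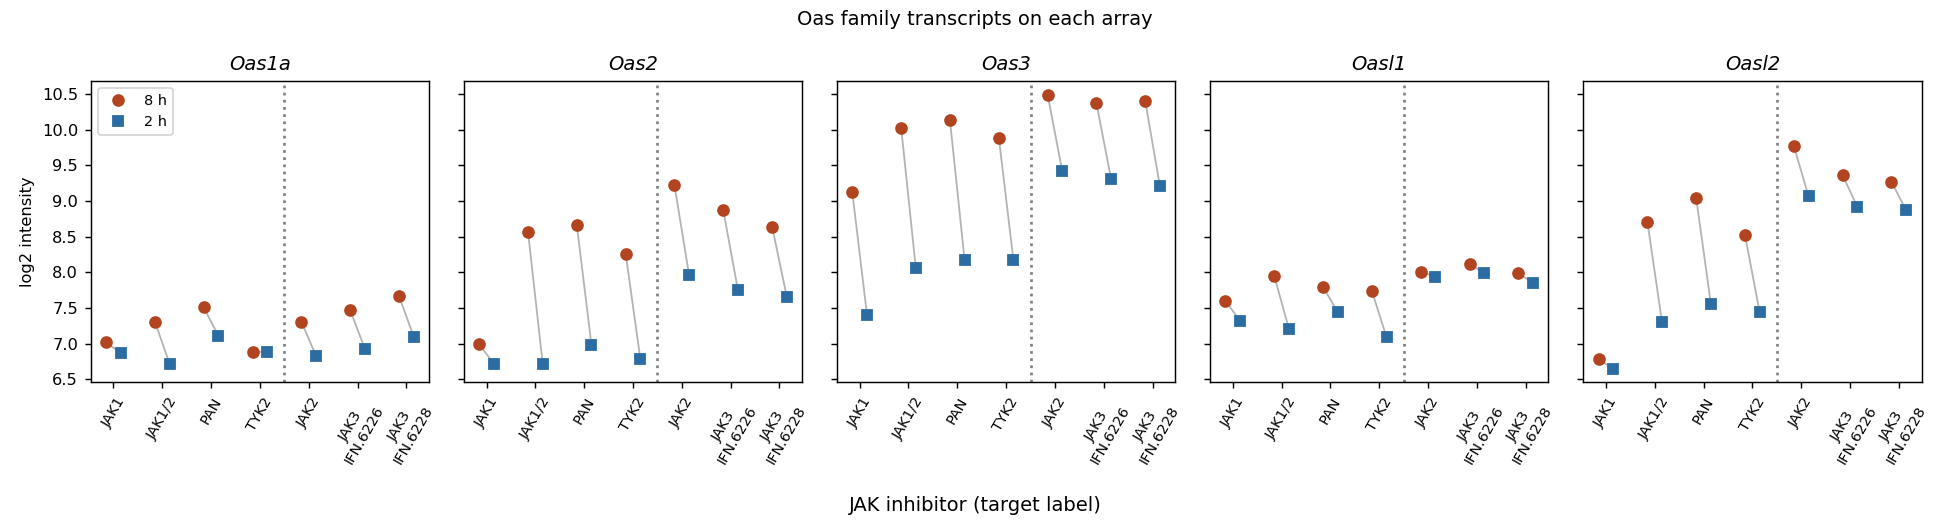
Log2 intensity of each member on each of the 14 arrays, with 1 panel a gene, the inhibitors along the horizontal axis, circles for 8 h and squares for 2 h, joined by a line for each inhibitor, and a dotted line between inhibitors naming JAK1 or TYK2 (left) and those naming only JAK2 or JAK3 (right). At 2 h the squares left of the line sit below those right of it for Oas2, Oas3, Oasl1 and Oasl2 but not for Oas1a, and the 2 JAK1 points of Oasl2 lie close together at 6.78 and 6.65.

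At 2 h, 4 of the 5 members were lower under the inhibitors naming JAK1 or TYK2 than under those naming only JAK2 or JAK3. Over all tested genes, 82 of 11851 were called lower at an adjusted p under 0.05 (0.692%), and none was called higher, with 484 genes at an unadjusted p under 0.05. Oasl2 differed most, at 7.24 ± 0.41 (SD, n = 4) against 8.95 ± 0.11 (n = 3), a log2 difference of -1.72 (SE 0.17, 95% interval -2.08 to -1.36) or 3.29-fold (limma, adjusted p = 0.000425). Oas3 averaged 7.96 ± 0.37 against 9.31 ± 0.10, a difference of -1.36 (SE 0.15), 2.56-fold (limma, adjusted p = 0.000836). These 2 genes also had the widest spread within the first class, where JAK1 lay 0.66 and 0.65 below the next array.

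Oas2 was at 6.81 ± 0.12 against 7.79 ± 0.15, a difference of -0.99 (SE 0.09), 1.98-fold (limma, adjusted p = 0.000381). Oasl1 was at 7.27 ± 0.15 against 7.93 ± 0.07, a difference of -0.66 (SE 0.09), 1.58-fold (limma, adjusted p = 0.00267). For these 4 genes every array of the first class lay below every array of the second, as it did for 3.13% of all tested genes. Oas1a was at 6.90 ± 0.16 against 6.95 ± 0.14, a difference of -0.06 (SE 0.10, 95% interval -0.27 to 0.15, adjusted p = 0.994). The interval leaves room for at most a small shift of Oas1a in either direction. The median difference of the 5 members was -0.99, beside 0.01 over all tested genes. Of the 3 arrays high in muscle markers, only that of JAK1/2 was taken at 2 h. Without it the 4 differences were between -0.64 (Oasl1) and -1.74 (Oasl2), with adjusted p of 0.0123 or less.

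At 8 h the means of all 5 members were again lower under inhibitors naming JAK1 or TYK2, but none passed the test. Nor did any of the 11851 genes (0%), with 1858 of them (15.7%) at an unadjusted p under 0.05. Oasl2 was at 8.26 ± 1.01 against 9.47 ± 0.27, a difference of -1.21 (SE 0.40, 95% interval -2.09 to -0.32, limma adjusted p = 0.307). Oas2 was at 8.12 ± 0.77 against 8.91 ± 0.29 (-0.79, SE 0.32) and Oas3 at 9.79 ± 0.46 against 10.42 ± 0.06 (-0.63, SE 0.19). Oas1a (-0.30, SE 0.15) and Oasl1 (-0.27, SE 0.10) differed less, and adjusted p was 0.307 to 0.322 for the 5. In Oas3, Oasl1 and Oasl2 the classes did not overlap, which held in the same direction for 13.6% of all tested genes. The median difference of the 5 members was -0.63, beside -0.08 over all tested genes. In Oas2, Oas3 and Oasl2 the JAK1 array lay 1.27, 0.76 and 1.74 below the next. Without the 3 arrays high in muscle markers, which leaves PAN and TYK2 in the first class, the differences of the 5 members were smaller or alike. They were between -0.27 (Oasl1) and -0.69 (Oasl2), with adjusted p of 0.803 to 0.826. Without the JAK1 inhibitor the difference of Oas2 was -0.42, that of Oas3 -0.40 and that of Oasl2 -0.71, against -0.96, -1.18 and -1.52 at 2 h on the same inhibitors.

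**Figure D2:**
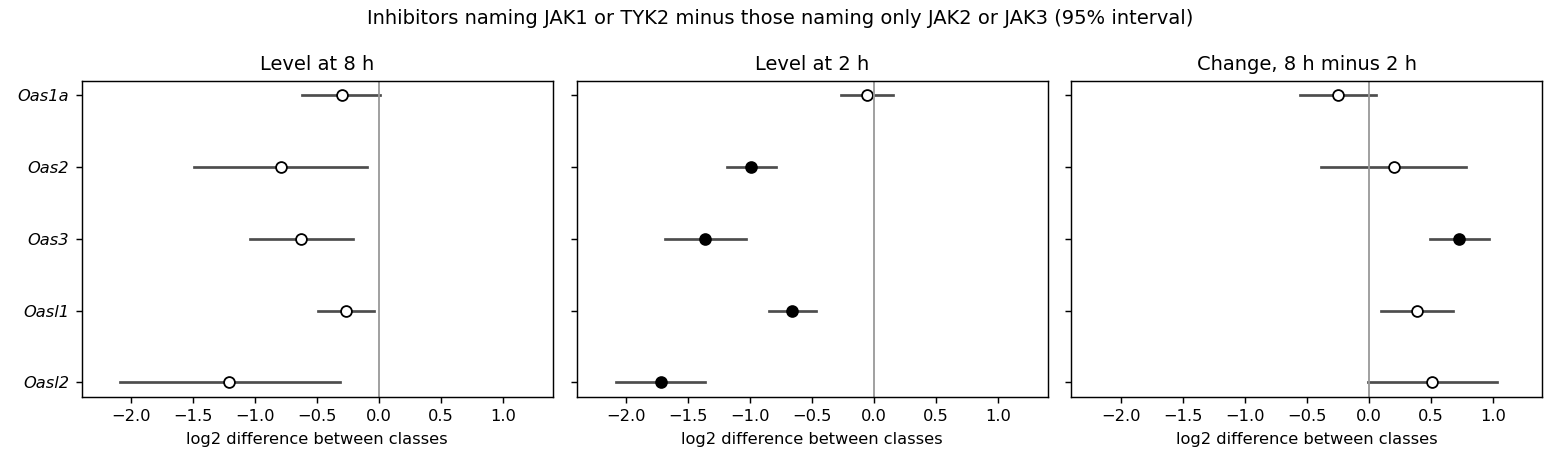
Log2 difference between the inhibitors naming JAK1 or TYK2 (n = 4) and those naming only JAK2 or JAK3 (n = 3) for each member, as points with 95% intervals, in panels for the 8 h level, the 2 h level and the 8 h minus 2 h change, with filled points where the adjusted p was under 0.05. Filled points are Oas2, Oas3, Oasl1 and Oasl2 at 2 h, from -0.66 to -1.72, and Oas3 in the change, at 0.73.

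All 5 members were higher at 8 h than at 2 h over the 7 inhibitors jointly, where 21.3% of all tested genes were called higher and 28% lower. Oas3 rose most, at 10.06 ± 0.47 at 8 h against 8.54 ± 0.77 at 2 h (SD, n = 7 each), a difference of 1.52 (SE 0.11), 2.87-fold (limma, adjusted p = 7.95e-08). Oas2 was at 8.46 ± 0.71 against 7.23 ± 0.54, a difference of 1.23 (SE 0.14), 2.34-fold (limma, adjusted p = 6.08e-06). Oasl2 was at 8.78 ± 0.98 against 7.97 ± 0.96, a difference of 0.81 (SE 0.14), 1.75-fold (limma, adjusted p = 0.000267). For Oasl2 the step between times was smaller than the spread between inhibitors, and without the inhibitor as a block its adjusted p was 0.122.

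Oas1a rose by 0.39 (SE 0.08), 1.31-fold, with 7.31 ± 0.28 at 8 h against 6.92 ± 0.14 at 2 h (limma, adjusted p = 0.000878). Oasl1 rose by 0.34 (SE 0.08), 1.26-fold, with 7.89 ± 0.18 against 7.55 ± 0.37 (limma, adjusted p = 0.00432). In Oas2, Oas3, Oasl1 and Oasl2 the 8 h value was above the 2 h value under all 7 inhibitors, which was so for 16% of all tested genes. In Oas1a it was so under 6 of 7. For every member the 7 arrays at 8 h overlapped the 7 at 2 h. The median difference of the members was 0.81, beside 0.02 over all tested genes. All 5 also passed without the 8 h array of the JAK1 inhibitor, with differences of 0.35 (Oasl1) to 1.49 (Oas3). Summed markers of T cells were higher at 8 h too, at 26500 to 27800 against 21000 to 23400 at 2 h. So were those of B cells (1720 to 2020 against 1290 to 1480) and CD8 T cells (646 to 771 against 501 to 563). The sums of the other listed cell types overlapped between the times. Examples are macrophages and monocytes (526 to 651 against 505 to 644) and NK cells (161 to 259 against 193 to 242). The part of any cell type in the rise of the members was not tested.

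The step between the times was larger in Oas3 under the inhibitors naming JAK1 or TYK2. Its 8 h minus 2 h difference was 1.71, 1.97, 1.95 and 1.72 under JAK1, JAK1/2, PAN and TYK2, against 1.07, 1.06 and 1.18 under JAK2, IFN.6226 and IFN.6228. The means were 1.84 ± 0.14 (SD, n = 4) against 1.11 ± 0.07 (n = 3), a difference of 0.73 (SE 0.11, 95% interval 0.49 to 0.97), 1.66-fold (limma, adjusted p = 0.0159). The classes did not overlap in the step of Oas3, nor in that of Oasl1, as in 3.14% of all tested genes in that direction. Oas3 was the 1 member called here, where 12 of 11851 genes were called higher (0.101%) and none lower, with 1192 at an unadjusted p under 0.05. The call was not kept in every setting. It was lost under median centring (0.66, adjusted p = 0.0709), with an offset of 50 (0.60, 0.0763), with the JAK3 inhibitors averaged (0.74, 0.121), and when JAK1/2, JAK2, IFN.6226 or IFN.6228 was left out (0.69 to 0.77, adjusted p = 0.111 to 0.163).

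Without the 3 arrays high in muscle markers, which leaves only PAN and TYK2 against the 3 others, the difference in the step of Oas3 was also 0.73 (adjusted p = 0.00496).

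The steps of the members were unequal under the JAK1 inhibitor. Under it Oas3 was 3.27-fold higher at 8 h than at 2 h, while Oas2 (1.20-fold), Oasl1 (1.21-fold), Oas1a (1.11-fold) and Oasl2 (1.09-fold) differed little. Under JAK1/2, PAN and TYK2, Oas2 differed by 1.84, 1.68 and 1.47 and Oasl2 by 1.41, 1.48 and 1.08 on the log2 scale. Under JAK2, IFN.6226 and IFN.6228 the steps of Oas2 were 1.25, 1.12 and 0.98 and those of Oasl2 0.70, 0.45 and 0.40. The JAK1 steps of 0.27 in Oas2 and 0.13 in Oasl2 thus lay below those of both sets of 3. With 1 array at each time they have no test of their own. Under JAK1, Oas2 was at 6.99 at 8 h and 6.72 at 2 h and Oasl2 at 6.78 and 6.65, not far above the filter of 6.27. Oas3 was at 9.12 and 7.41. Whether low intensity limited the steps of Oas2 and Oasl2 was not tested.

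The mean steps of Oasl2 were 1.03 ± 0.62 against 0.51 ± 0.16, a difference of 0.51 (SE 0.24, limma adjusted p = 0.479). Without the 8 h array of the JAK1 inhibitor, and so without its step, that difference was 0.81 (SE 0.14) and passed (adjusted p = 0.00682). Without the 3 arrays high in muscle markers, which leaves only PAN and TYK2 in the first class, it was 0.77 (adjusted p = 0.0244). The steps of Oas2 averaged 1.31 ± 0.72 against 1.12 ± 0.14 (0.20, SE 0.27, adjusted p = 0.697), and that difference was 0.54 (SE 0.14, adjusted p = 0.2) without the JAK1 inhibitor and 0.02 without JAK1/2. Those of Oasl1 averaged 0.51 ± 0.22 against 0.11 ± 0.04 (0.39, SE 0.14, adjusted p = 0.479). Oas1a ran the other way, at 0.29 ± 0.26 against 0.53 ± 0.04 (-0.25, SE 0.15, adjusted p = 0.486), which did not pass either. Without the 3 arrays high in muscle markers, the differences of Oas2, Oasl1 and Oas1a were 0.45, 0.39 and -0.33. None of them passed (limma, adjusted p = 0.999 for each). The median difference in step over the 5 members was 0.39, beside -0.09 over all tested genes.

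**Figure D3:**
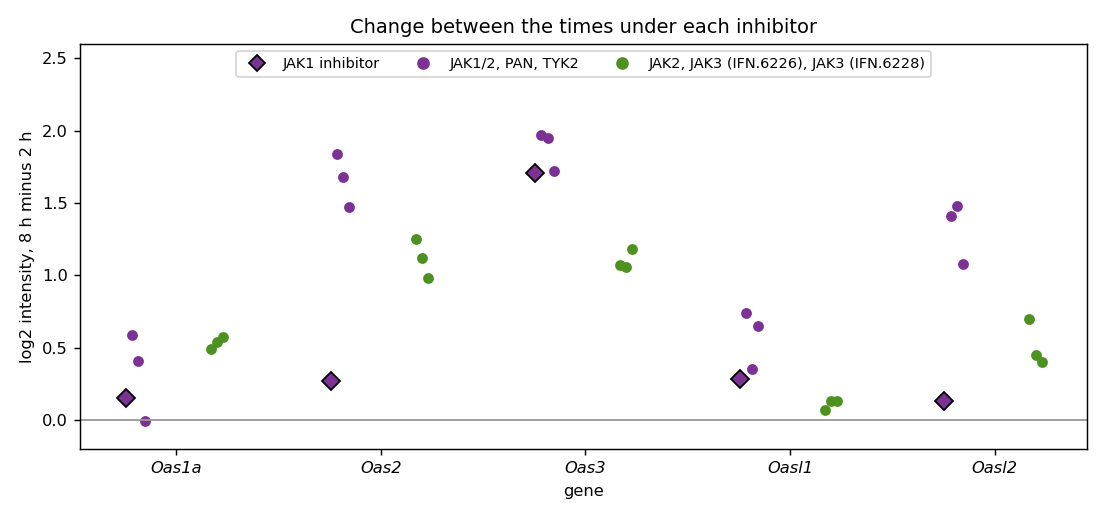
Log2 intensity at 8 h minus that at 2 h under each inhibitor, with 1 point for each inhibitor and gene: inhibitors naming JAK1 or TYK2 in purple on the left of each gene (the JAK1 inhibitor as a diamond) and those naming only JAK2 or JAK3 in green on the right. For Oas3 all 4 purple points (1.71 to 1.97) lie above the green ones (1.06 to 1.18), and for Oas2 and Oasl2 the JAK1 diamond lies below the green points while the other purple points lie above them.

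Set against each other one by one over both times, the inhibitors differed mainly where JAK1 was one of the pair. Of 105 comparisons (5 genes by 21 pairs), 11 passed after adjustment over all genes and pairs, beside 740 of 248871 over all tested genes (0.297%). Of the 11, 9 were among the 30 that involve the JAK1 inhibitor, where 0.946% of the comparisons over all genes were called lower. The other 2 were among the 75 without it, where 0.0332% were called in either direction. All 11 had the lower value under the inhibitor naming JAK1 or TYK2 or, in the 1 pair within that class, under JAK1.

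Oasl2 accounted for 6 of the 11. Its mean over both times was 6.71 under JAK1, against 9.42 under JAK2, a difference of -2.71 (SE 0.26), 6.54-fold (limma, adjusted p = 0.000293). Against IFN.6226 and IFN.6228 the JAK1 inhibitor differed by -2.43 (5.38-fold, adjusted p = 0.000698) and -2.36 (5.12-fold, adjusted p = 0.000892). Without the 8 h array of the JAK1 inhibitor these 3 differences were -2.31, -2.03 and -1.96, and all passed (adjusted p = 0.000793 to 0.00317). Within the class, JAK1 (6.71) was lower than PAN (8.30), by -1.59 (SE 0.26, adjusted p = 0.0184), a call lost without the 8 h array of the JAK1 inhibitor (-1.19, adjusted p = 0.0878). JAK1/2 (8.01) and TYK2 (7.98) were each below JAK2 (9.42), by -1.41 (adjusted p = 0.0387) and -1.44 (adjusted p = 0.0343). These 2 calls did not hold under quantile normalization (adjusted p = 0.0905 and 0.078), without a variance trend (0.0812 and 0.0743) or under cyclic loess (0.0616 and 0.052), and that of JAK1/2 did not hold without TYK2 (0.0558) or IFN.6226 (0.0518).

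Oas3 averaged 8.27 under JAK1, against 9.96 under JAK2 (-1.69, SE 0.21, 3.22-fold, limma adjusted p = 0.00191), 9.84 under IFN.6226 (-1.57, adjusted p = 0.0033) and 9.80 under IFN.6228 (-1.54, adjusted p = 0.00394). All 3 calls held without the 8 h JAK1 array, with differences of -1.80, -1.68 and -1.65. Oas2 averaged 6.86 under JAK1, against 8.59 under JAK2 (-1.73, SE 0.26, adjusted p = 0.00952) and 8.31 under IFN.6226 (-1.45, adjusted p = 0.0323). Without the 8 h JAK1 array the first of these was -1.17 (adjusted p = 0.0246) and the second -0.89 (adjusted p = 0.109), and the second was also lost under quantile normalization (adjusted p = 0.0626), without a variance trend (0.0706) and without the JAK2 inhibitor (0.0505). In Oas1a and Oasl1 no pair passed, with smallest adjusted p of 0.284 and 0.165.

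Ordered by the mean of both times, Oas2, Oas3 and Oasl2 gave the same sequence, with JAK1 lowest, then TYK2, JAK1/2 and PAN, then IFN.6228, IFN.6226 and JAK2. The order differed between the times. In these 3 genes JAK1/2 was below TYK2 at 2 h and above it at 8 h. In Oas2, JAK1/2 and JAK1 were both at 6.72 at 2 h, and PAN was above IFN.6228 at 8 h. No neighbours in the order by the mean differed past the threshold in any member. The widest step between neighbours was that of Oasl2 between JAK1 and TYK2, where JAK1 minus TYK2 was -1.27 (95% interval -1.83 to -0.70, adjusted p = 0.0721). The JAK1/2 and TYK2 inhibitors were close in Oasl2 (difference 0.03, 95% interval -0.53 to 0.59) and in Oas3 (0.02, -0.43 to 0.47). The wider of these intervals still allows a difference of 1.5-fold.

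Oasl1 ran TYK2, JAK1, JAK1/2 and PAN, then IFN.6228, JAK2 and IFN.6226, from 7.42 to 8.06. Oas1a kept no such grouping: TYK2 was lowest (6.89) and IFN.6228 highest (7.39), with PAN (7.31) between the 2 JAK3 inhibitors. The 2 JAK3 inhibitors, IFN.6226 and IFN.6228, were never called apart in any tested gene, and neither was PAN from either of them. The difference of IFN.6226 from IFN.6228 was 0.16 in Oas2 (95% interval -0.41 to 0.72), 0.03 in Oas3, 0.07 in Oasl2, 0.14 in Oasl1 and -0.18 in Oas1a. The intervals do not show that the pair acted alike.

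**Figure D4:**
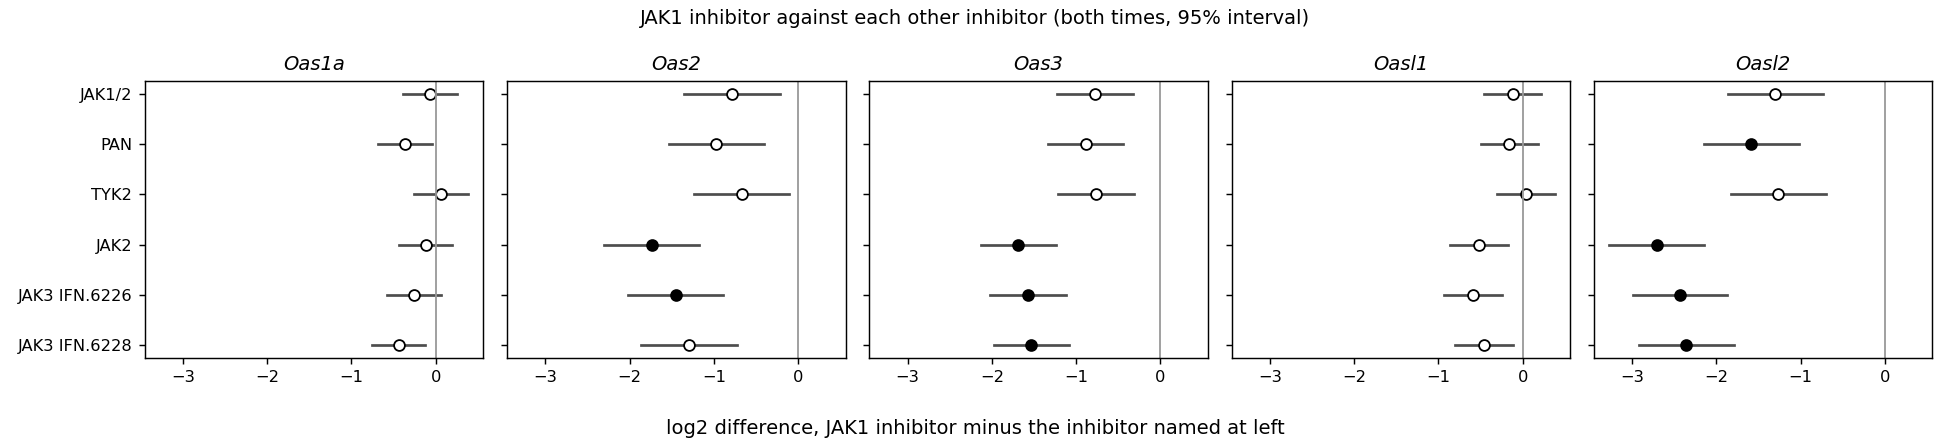
Log2 difference of the JAK1 inhibitor from each of the other 6 inhibitors (rows) for each member (panels), as the mean over both times with its 95% interval, with filled points where the adjusted p over all genes and pairs was under 0.05. Filled points reach from -1.45 to -2.71 and lie in Oas2, Oas3 and Oasl2, mostly in the rows of JAK2, IFN.6226 and IFN.6228, and Oas1a and Oasl1 have none.

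Other genes of the Oas1 cluster could be followed only in part. Of 7 further Oas1 paralogs, Oas1b and Oas1c were tested, Oas1d, Oas1e, Oas1f and Oas1h lay below the filter (mean log2 intensity 4.06 to 5.41), and Oas1g was not analysed here. Oas1b stood at 9.41 ± 0.48 at 8 h against 8.65 ± 0.62 at 2 h and rose by 0.76 (SE 0.07, adjusted p = 1.35e-06), and Oas1c rose by 0.82 (SE 0.06, adjusted p = 6.26e-08). Neither passed between the classes at 2 h, with -0.82 (SE 0.24, adjusted p = 0.31) and -0.38 (SE 0.10, adjusted p = 0.19). Under JAK1, Oas1b was at 8.38 at 8 h and 7.40 at 2 h, the lowest value at either time. Oas1 paralogs are near copies, and whether probes for Oas1a, Oas1b and Oas1c also catch transcripts of the others was not tested.

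Partners of the 2-5A pathway were not called between the classes at either time, and neither were nearly all tested genes. Of these 0.692% were called lower at 2 h and 0% at 8 h. The 3 genes of this pathway that were tested were Abce1, Pde12 and Akap7. Abce1, an ATP-binding protein that recycles ribosomes, was at 10.42 ± 0.15 at 8 h against 11.20 ± 0.10 at 2 h and fell by 0.79 (SE 0.04, limma adjusted p = 6.49e-09). Pde12, a phosphodiesterase that degrades 2-5A, fell by 0.32 (SE 0.07, adjusted p = 0.00175). Akap7, which has a 2-5A phosphodiesterase domain, differed by 0.18 (SE 0.08, adjusted p = 0.0665). Between the times, 28% of all tested genes were called lower and 21.3% higher. The class differences of the 3 genes ran from -0.08 to -0.01 at 2 h and from -0.18 to -0.17 at 8 h. The medians over all tested genes were 0.01 and -0.08.

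Of 8 other listed sensors of double-stranded nucleic acid, 7 were tested and Tlr3 was below the filter. At 2 h, 5 of the 7 were lower under inhibitors naming JAK1 or TYK2 and none was higher, with a median difference of -0.90, beside 0.692% of all tested genes called lower. They were Dhx58, the RIG-I-like helicase LGP2 (-1.50, SE 0.22, adjusted p = 0.00437), Eif2ak2, the kinase PKR (-1.24, SE 0.22, adjusted p = 0.0161), Ifih1, the helicase MDA5 (-1.21, SE 0.15, adjusted p = 0.00174), Ddx58, the helicase RIG-I (-0.90, SE 0.10, adjusted p = 0.00106), and Zbp1, a sensor of Z-form nucleic acid (-0.62, SE 0.10, adjusted p = 0.00736). Adar, an RNA-editing deaminase (-0.63, adjusted p = 0.0654), and Cgas, the DNA sensor (-0.15, adjusted p = 0.994), did not pass. None of the 7 passed at 8 h, nor did any tested gene. Between the times 5 rose and none fell, where 21.3% of all tested genes were called higher and 28% lower. Dhx58 differed most (1.27, SE 0.13, adjusted p = 2.86e-06). Its step also differed between the classes, at 1.63 ± 0.29 against 0.78 ± 0.11 (adjusted p = 0.0308).

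Upstream of the family, 14 genes of interferon signalling were tested. At 2 h, 2 of the 14 were lower under inhibitors naming JAK1 or TYK2 (0.692% of all tested genes). They were Stat2, a subunit of ISGF3, at 9.08 ± 0.42 against 10.20 ± 0.12 (-1.12, SE 0.17, adjusted p = 0.00586) and Usp18, which restrains signalling at the interferon receptor (-1.99, SE 0.36, adjusted p = 0.0187). Irf9, the DNA-binding subunit of ISGF3, had a difference of -0.37 (SE 0.10, adjusted p = 0.23). Irf7, whose mRNA Oasl1 acts on, had one of -1.50 (SE 0.33, adjusted p = 0.069). The receptor genes Ifnar1 and Ifnar2 and the kinase genes Jak1, Jak2 and Tyk2 differed by at most 0.09 in either direction. Between the times 8 of the 14 rose and 4 fell, beside 21.3% and 28% of all tested genes. Those that rose included Irf7 (1.13, SE 0.13, adjusted p = 4.75e-06), Stat2 (0.42, SE 0.10, adjusted p = 0.00304) and Irf9 (0.20, SE 0.05, adjusted p = 0.00496). The receptor and kinase genes Ifnar2 (0.49, SE 0.04, limma adjusted p = 5.14e-07), Tyk2 (0.35) and Jak1 (0.31) were also among them. The 4 that fell were Irf8 (-1.34), Socs1 (-0.72), Jak2 (-0.38) and Ifnar1 (-0.22). The step of Irf7, like that of Oas3, was larger under inhibitors naming JAK1 or TYK2, at 1.48 ± 0.21 against 0.65 ± 0.12 (adjusted p = 0.0149), as was that of Usp18 (1.52 ± 0.14 against 0.46 ± 0.04, adjusted p = 0.000488).

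Beside the median of -0.99 for the OAS members at 2 h, the 3 genes of the IFIT family had a median of -1.74 and all passed, and 4 genes of the Mx and viperin group (Mx1, Mx2, Rsad2, Cmpk2) had -1.53 and all passed. Over all tested genes 0.692% were called lower at 2 h. Under the inhibitors naming JAK1 or TYK2 at 2 h, Mx1 (5.30 to 6.23) and Mx2 (5.02 to 6.08) lay below the filter of 6.27. They were tested because their mean over all 14 arrays reached it, so their calls at 2 h rest partly on values below it. Between the times the medians were 0.81 for the OAS members, 0.91 for IFIT and 0.85 for Mx and viperin. Every gene of the 3 groups was called higher, as were 21.3% of all tested genes.

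The members' profiles over the 14 arrays were close to each other except for that of Oas1a. Pearson r was 0.95 between Oas2 and Oas3, 0.91 between Oas2 and Oasl2, 0.86 between Oas3 and Oasl2, and 0.86 to 0.87 between Oasl1 and these 3. After the mean of each time was taken out, Oasl2 correlated at 0.97 with both Oas2 and Oas3. Oas1a reached 0.60 to 0.74 with the others, and 0.39 to 0.48 after the time means were taken out. Whether its low intensity and narrow range lowered these values was not tested. The points share inhibitors, times and the arrays themselves, so these values describe likeness only.

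The tested genes outside the family whose profile was most like the mean of the 5 members were Ifit2 (r = 0.988 over 14 arrays), Usp25 (0.980), Mitd1 (0.980), Rnf213 (0.980), Dhx58 (0.977), Ifit3 (0.977), Nmi (0.972), Trim34a (0.970), Gbp9 (0.969) and Ddx60 (0.969). With the time means taken out these 10 still had r of 0.944 (Trim34a) to 0.982 (Usp25). Over 11846 tested genes outside the family the median r was 0.05, and 91 genes exceeded 0.9.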

How the data were processed

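RNA of CD4+ T cells was measured on 14 arrays, 1 for each of 7 inhibitors at 8 h and 2 h. The deposited table gives each probe set 1 intensity on each array. Per the submitters' processing notes they were made with Affymetrix Power Tools and RMA, whose versions are not given in the sources used here. All values were positive (4.78 to 22879, array medians 109 to 121), so the scale was taken to be linear and log2 values were computed here. How background was corrected, and which arrays were normalized jointly, is unknown, and the number of arrays limits the precision. Groups came from the titles and labels.

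Of 24922 probe sets, 21425 carried 1 gene symbol, 1399 several and 2098 none. Only the first kind was used, which left out 1 probe set naming Oas1a with another symbol. In RefSeq (GRCm38.p6) 21347 identifiers were found, with 0 symbols to update. A gene's brightest probe set was tested if its mean log2 intensity reached the 40th percentile (6.27). Oas1g is not the sole symbol of any probe set in the annotation used, and some other listed genes are not reported here.

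Tests used limma 3.58.1 with statmod 1.5.0 in R 4.3.3 (lmFit, eBayes with trend). Classes were compared on 1 value per inhibitor (4 against 3), and times and pairs of inhibitors in 1 additive fit of inhibitor and time on all 14 arrays. P-values were adjusted by the Benjamini-Hochberg method across the tested genes, and for pairs across genes and 21 pairs, with a threshold of 0.05. Each test was first run on simulated data with known changes. Tables, promoter searches and plots used Python 3.11.15 with matplotlib 3.10.9, scipy 1.17.1, pandas 2.3.3 and numpy 2.4.6.

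The members, lists and comparisons were chosen with earlier results of these data known. Named are every member, up to 4 genes of each list and comparison with the largest moderated t, always Stat2, Irf9 and Irf7, and the 10 genes most like the family. Ifnar1, Ifnar2, Jak1, Tyk2, Adar and Cgas, where outside this rule, and the members of the promoter, marker and single-inhibitor descriptions were picked with the values known. The alternatives tried were median centring, quantile normalization, a filter at the 60th percentile or none, the mean of all probe sets, an offset of 50, no variance trend, robust moderation, the JAK3 inhibitors averaged, no inhibitor block and each inhibitor left out. Cyclic loess and leaving out the 8 h JAK1 array or the 3 arrays high in muscle markers were chosen after seeing the data.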

Additional observations from a re-analysis of the deposited data

Results flagged for a closer look

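At 2 h, Oas3 under the JAK1 inhibitor was at 7.41, far below the other 3 inhibitors naming JAK1 or TYK2, which lay between 8.06 and 8.17. The gap was 0.857 of the range of the 4 values. It was the 1 such case among 15 sets of 4 values examined (5 members at 8 h, at 2 h and in the change between them). Chance gives about 1 in 20 sets, so 1 case in 15 is close to that rate. The sets share arrays and inhibitors and are not independent.

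The step between 8 h and 2 h in Oas3 differed between the inhibitor classes by 0.73 on the log2 scale, larger under inhibitors naming JAK1 or TYK2 (limma, adjusted p = 0.0159).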

How the results depend on the processing

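Without a repeated array no setting here tests the spread between cultures. The count of members called was 4 of 5 between the classes at 2 h and 0 at 8 h in every alternative run. Under the filter at the 60th percentile, which removes Oas1a, it was 4 of 4 at 2 h. Between the times 5 of 5 were called, except without the inhibitor block, where 4 were called and Oasl2 had an adjusted p of 0.122, and under the 60th-percentile filter (4 of 4). The difference of Oas1a between the classes at 2 h, -0.06, was -0.13 to 0.02 with 1 inhibitor left out. Leaving out the 3 arrays high in muscle markers is at 2 h the same fit as leaving out JAK1/2 (0.00). For the change between times, 1 member was called as reported, 0 under median centring, with an offset of 50 and with the JAK3 inhibitors averaged, 2 without the 8 h JAK1 array, 2 without the 3 arrays high in muscle markers, and 0 to 2 with 1 inhibitor left out. In the change, leaving out the 8 h JAK1 array is the same fit as leaving out JAK1. Of pairs, 11 comparisons passed as reported, 19 under median centring and 3 (without JAK1, which takes out 30 of the comparisons) to 12 (without PAN) with 1 inhibitor left out. Single pair calls were lost in 13 of 165 checks, and the cause was not tested. Over all genes, the 82 calls between the classes at 2 h were 28 without IFN.6228, 34 with the JAK3 inhibitors averaged, 35 without JAK2, 46 with robust moderation and 47 without IFN.6226. The 12 calls for the change were 2 to 40 over the alternatives. The 740 pair calls were 443 without a variance trend and 62 without JAK1, and their split of higher against lower was 30 to 710 as reported, 310 to 567 under quantile normalization and 354 to 612 under cyclic loess. Between the times that split was 2526 to 3316 as reported, 3171 to 3168 under quantile normalization and 1836 to 3439 under median centring.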

Other observations

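Under the JAK1 inhibitor, interferon-stimulated genes of the lists did not share a single pattern between the times. The 8 h minus 2 h differences on the log2 scale were 0.13 for Oasl2, 0.27 for Oas2, 0.01 for Eif2ak2, -0.02 for Zbp1, 0.14 for Ifih1, 0.28 for Mx1 and 0.27 for Rsad2. They were 1.71 for Oas3, 1.66 for Irf7, 1.43 for Usp18, 1.31 for Ifit1, 1.26 for Dhx58 and 0.97 for Oas1b. Other listed genes lay between, with 0.51 for Ddx58, 0.66 for Ifit2, 0.66 for Stat2, 0.79 for Oas1c and 0.88 for Adar. The differences thus ran on a continuous scale and did not fall into separate groups. Each rests on 1 array at each time, so none has a test, and these genes were picked after their values were seen. On those same arrays Abce1 differed by -0.86 and Irf8 by -1.51. Some of the small differences came at low levels under JAK1. At 8 h and 2 h these were 5.58 and 5.30 for Mx1, 6.81 and 6.54 for Rsad2, and 6.78 and 6.65 for Oasl2. Oas2 was at 6.99 and 6.72, and the filter was at 6.27. Ifih1, Eif2ak2 and Zbp1 stood higher, at 7.78 to 9.84. Whether low intensity limited the differences was not tested.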
